A study of Oryza sativa with 8 samples.

Results

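Ethylene is a gaseous plant hormone, and the genes described here are those that were already expressed in rice root tips kept in air and stood far higher in root tips kept in ethylene. They were chosen by measured values, namely CPM, the count of a gene multiplied by 1000000 and divided by the total count of its library. A gene was taken when its lowest CPM over the 4 libraries in air was at least 1, its lowest CPM over the 4 libraries in ethylene was at least 10, and its lowest CPM in ethylene was at least 4 times its highest CPM in air. This rule found 51 of the 57359 gene IDs in the table. They made up 0.413% of the 12358 genes that passed both limits on level, and all 51 were among the 27008 genes that passed the count filter used for testing. Because all 8 libraries entered the rule, the difference between ethylene and air is given below as a description and was not tested. The rule did not compare the calcium groups, and calcium was tested in a fit over all genes, but the rule used the values of the same libraries, so the calcium results are not free of the choice of members.

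Ethylene is perceived by membrane-bound receptors, which in its absence keep a CTR kinase active and the membrane protein EIN2 silent. When ethylene binds, EIN2 signals to the EIN3 and EIL transcription factors, which switch on the response genes. In dark-grown rice seedlings ethylene is known for inhibiting root growth, with auxin and abscisic acid acting downstream of it. Calcium is a widespread second messenger in plant cells.

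Root tips of rice of the genotype Dongjin were collected after 2 days of germination at 37 °C and 3 days of culture at 28 °C, all in darkness. The seedlings stood in airtight boxes, into which 2 ppm of ethylene gas was injected for the treated groups. The 4 groups, with 2 libraries each, were calcium and ethylene, ethylene, calcium, and control, and the comparison addressed whether the calcium supply bears on the ethylene response. The labels give neither the CaCl2 concentrations nor which group had low and which had normal calcium. Below, lower or higher with calcium refers to the groups labelled calcium, whether their supply was the larger or the smaller. Poly(A) RNA from the tips was sequenced. Whether replicate libraries were made from different plants is not stated, so p-values rest on a spread between libraries that may be technical. RNA from whole tips cannot tell a change in the number of cells of a type apart from a change in RNA per cell.

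The libraries held between 19099091 and 25907083 counts, and ethylene replicate 4 was the deepest. The gene IDs come without names, and 0 of them were found in a rice RefSeq table of 39387 genes. Roles of the genes are therefore not given, and the root tip label could not be checked against marker genes. The member with the highest ratio of lowest ethylene to highest air CPM and the member with the highest mean CPM in ethylene are named by ID. Other members are described by the chromosome field of their ID and by the length that the table gives for them.

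Levels in ethylene were many times those in air in every member, as the rule required, and they spread over a wide range. Mean CPM had a median of 62.0 in the calcium and ethylene group (11.3 to 1206 over the 51 members) and 89.8 in the ethylene group (15.2 to 1481). In air the medians were 4.56 in the calcium group (1.42 to 80.9) and 5.76 in the control group (1.55 to 118). Over the 4 ethylene-treated libraries, 4 members averaged under 30 CPM, 27 lay between 30 and 100, 15 between 100 and 300, and 5 at 300 or above. Over the 4 air libraries, 25 members averaged under 5 CPM and 3 averaged 30 or more. The lowest count behind any member was 204 in an ethylene-treated library and 21 in an air library, so the air values carried the larger counting error.

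**Figure D1:**
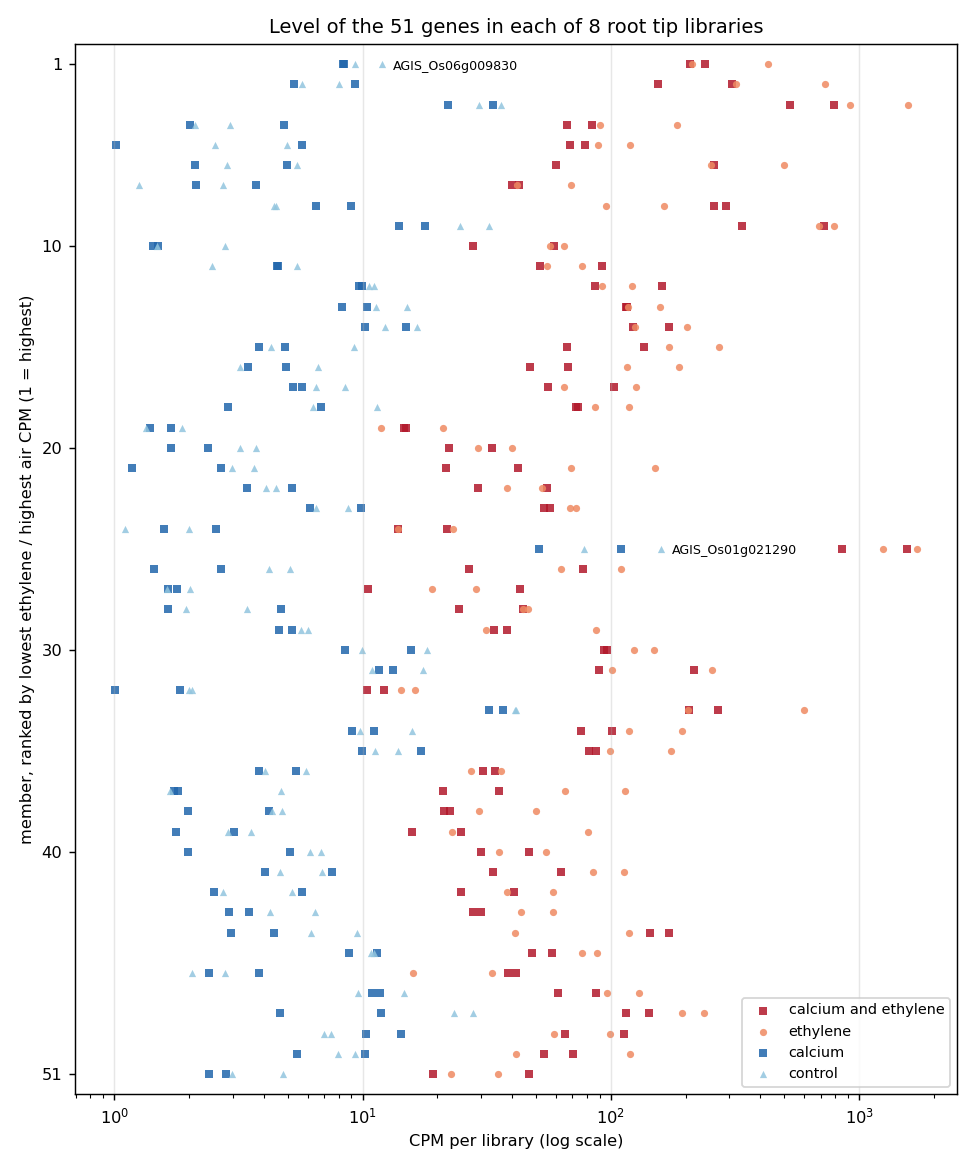
CPM of each of the 51 genes (rows, ranked by the ratio of lowest ethylene to highest air CPM) in each of the 8 libraries, on a log axis, with 1 point per library. In every row the 4 ethylene-treated libraries lie to the right of the 4 air libraries, and the gap narrows down the page to 4.02-fold.

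AGIS_Os06g009830, with a length of 1528 bases and a chromosome field of 6, had the widest gap. It had 239.1 and 208.8 CPM in the calcium and ethylene libraries, 212.6 and 429.0 in the ethylene libraries, 8.34 and 8.40 in the calcium libraries, and 12.0 and 9.34 in the control libraries. Ethylene replicate 4 stood alone above the other ethylene-treated libraries, which lay close together, and the air libraries were close to each other as well. The group means were 224 ± 21.4 CPM for calcium and ethylene, 321 ± 153 for ethylene, 8.37 ± 0.0445 for calcium and 10.7 ± 1.88 for control (SD, n = 2 each). Its lowest ethylene value was 17.4 times its highest air value. Mean CPM was 30.1-fold higher in ethylene than in control and 26.8-fold higher in calcium and ethylene than in calcium.

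AGIS_Os01g021290, with a length of 1397 bases and a chromosome field of 1, had the highest CPM of the members in ethylene. It had 849.5 and 1562 CPM in the calcium and ethylene libraries, 1714 and 1247 in the ethylene libraries, 110.2 and 51.5 in the calcium libraries, and 158.7 and 78.1 in the control libraries. The libraries of each group lay far apart, more so in air than in ethylene, and the calcium and ethylene libraries overlapped the ethylene libraries. Means were 1206 ± 504 CPM for calcium and ethylene, 1481 ± 330.2 for ethylene, 80.9 ± 41.5 for calcium and 118 ± 57.0 for control (SD, n = 2 each). This gene was the most abundant member in air too. Its fold was 12.5 in ethylene over control and 14.9 in calcium and ethylene over calcium, and its lowest ethylene value was 5.35 times its highest air value.

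In the order of the ratio, AGIS_Os06g009830 was followed by a pair of short genes with the chromosome field 12. Their ratios were 16.6 in the gene of 828 bases and 14.6 in that of 898 bases. The member of 898 bases had 528 and 794 CPM in the calcium and ethylene libraries, 916 and 1569.8 in the ethylene libraries, 22.1 and 33.3 in the calcium libraries, and 36.1 and 29.4 in the control libraries. The member of 828 bases had 154 and 306 CPM with calcium and ethylene, 318 and 726 with ethylene, 5.30 and 9.28 with calcium, and 8.06 and 5.71 in control. In both genes ethylene replicate 4 was the highest library and calcium and ethylene replicate 2 the lowest of the ethylene-treated ones. The fold of ethylene over control was 75.8 in the shorter gene, against 31.6 for calcium and ethylene over calcium.

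The largest fold in either pair of groups was in a member of 1408 bases with the chromosome field 1. It had 59.9 and 261 CPM with calcium and ethylene, 253 and 497 with ethylene, 2.12 and 4.96 with calcium, and 5.42 and 2.83 in control. Calcium and ethylene replicate 2 was far below the other ethylene-treated libraries in this gene. Mean CPM was 90.9-fold higher in ethylene than in control and 45.4-fold higher in calcium and ethylene than in calcium.

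Over the 51 members, the fold of mean CPM had a median of 11.9 in ethylene over control (6.41 to 90.9, with quartiles of 9.77 and 26.8). In calcium and ethylene over calcium the median was 12.6 (5.23 to 45.4, with quartiles of 8.15 and 16.2). A fold of at least 20 was reached by 14 members in ethylene over control and by 12 in calcium and ethylene over calcium. The fold was higher in ethylene over control in 32 of the 51 members, although the medians run the other way. The ratio of lowest ethylene to highest air CPM was under 5 in 19 members, between 5 and 10 in 23, and 10 or more in 9, with a median of 5.29.

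**Figure D2:**
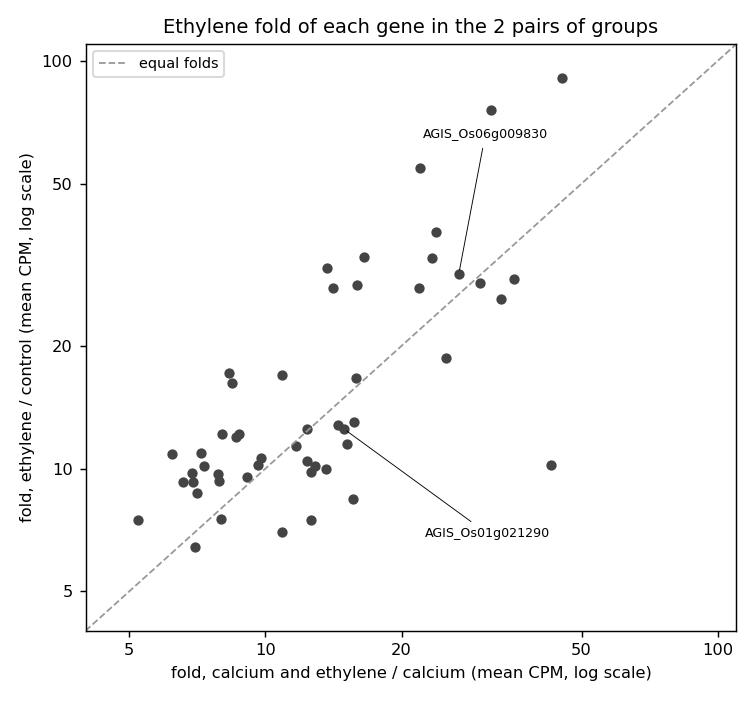
Fold of mean CPM in calcium and ethylene over calcium (x) against ethylene over control (y) for each of the 51 genes, both on log axes, with a dashed line where the folds are equal. Most genes, 32 of 51, lie above the line, and the point farthest below it at high x has a fold of 42.7 in calcium and ethylene over calcium and 10.2 in ethylene over control.

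Levels crossed the 4-fold limit with no gap. The members just inside it had ratios of 4.02 (19.2 CPM in the lowest ethylene library and 4.78 in the highest air library), 4.05 (41.6 and 10.3 CPM) and 4.11 (58.9 and 14.3 CPM). Just outside it lay genes with ratios of 3.95 (21.5 and 5.43 CPM), 3.92 (81.3 and 20.7 CPM) and 3.92 (235.2 and 60.0 CPM). Among the genes past both limits on level, 258 had a ratio between 2 and 4 and 2549 a ratio between 1 and 2. A further 41 genes passed the ethylene and ratio limits but fell under 1 CPM in at least 1 air library, and 14 of these had 0 counts in at least 1 air library.

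Together the 51 genes held 0.528% and 0.709% of all counts in the calcium and ethylene libraries, 0.762% and 1.02% in the ethylene libraries, 0.0440% and 0.0403% in the calcium libraries, and 0.0601% and 0.0472% in the control libraries. Calcium and ethylene stayed below ethylene in each library, and calcium below control. The means were 0.618% ± 0.128 for calcium and ethylene, 0.891% ± 0.182 for ethylene, 0.0421% ± 0.00260 for calcium and 0.0536% ± 0.00915 for control (SD, n = 2 each). A few genes carried much of this share. The 5 most abundant members made up between 40.5% and 50.6% of the members' counts in the ethylene-treated libraries.

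**Figure D3:**
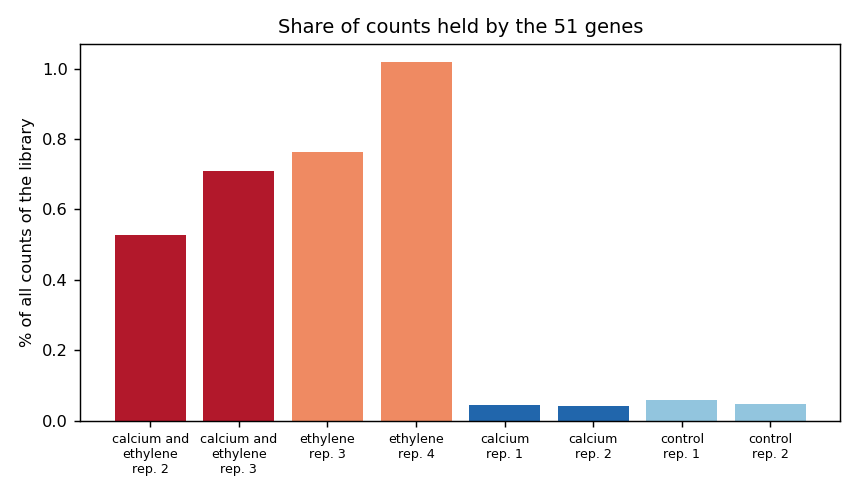
Share of all counts (%) held by the 51 genes in each library, with 1 bar per library and an axis that starts at 0. The 4 ethylene-treated libraries stand between 0.528% and 1.02% and the 4 air libraries between 0.0403% and 0.0601%.

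Divided by gene length in kilobases, which turns CPM into RPKM, the members moved through the distribution of expressed genes. In ethylene their mean RPKM had a median of 48.0 (3.22 to 1060), where all genes tested had a median of 6.65. In air it had a median of 3.67 (0.418 to 71.3), where all genes tested had 6.36. The median member stood at percentile 90.8 of the genes tested in ethylene and at percentile 38.8 in air. Of the 51 members, 29 were in the top 10% in ethylene and 1 was there in air, which was AGIS_Os01g021290. That gene had 962 RPKM in ethylene, at percentile 99.8, and 71.3 in air, at percentile 93.9. AGIS_Os06g009830 had 178 RPKM in ethylene, at percentile 97.9, and 6.23 in air, at percentile 49.6. By RPKM the highest member in ethylene was the 898-base gene with the chromosome field 12, at 1060.

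The members were somewhat shorter than the other genes past both limits on level, which are not matched to them in level. Their median length was 1528 bases (267 to 4916), against 1964 bases in the other genes past both limits on level and 1754.5 in all genes tested. Genes under 1000 bases made up 12 of the 51 members (23.5%), against 10.1% of the other genes past both limits. Those of 3000 bases or more made up 5 members (9.80%), against 18.9% of the other genes. The shortest member, of 267 bases with the chromosome field 11, had 65.3 and 112 CPM with calcium and ethylene, 98.96 and 58.9 with ethylene, 10.3 and 14.3 with calcium, and 7.49 and 7.01 in control. In that gene both calcium libraries lay above both control libraries, and the ethylene-treated groups overlapped.

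By the chromosome field of the IDs, 13 members (25.5%) lay on chromosome 1, which held 13.6% of the genes tested. Chromosome 10 held 7 members (13.7%, against 5.18% of the genes tested), and chromosomes 9 and 11 held 5 each. Chromosome 2 held 2 members (3.92%, against 11.1%) and chromosome 4 held 1 (1.96%, against 8.45%). Some members were also close neighbours. Successive IDs in the table are 10 apart in 99.98% of cases, and 5 pairs of members, 10 genes in all, lay within 5 rows of each other.

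The adjacent pair on chromosome 1 had lengths of 1230 and 1206 bases. The gene of 1230 bases had 21.0 and 35.6 CPM with calcium and ethylene, 65.6 and 114 with ethylene, 1.73 and 1.81 with calcium, and 4.70 and 1.67 in control. Its neighbour of 1206 bases had 47.1 and 66.9 CPM with calcium and ethylene, 116 and 189 with ethylene, 4.91 and 3.44 with calcium, and 6.62 and 3.21 in control. Both followed the same order of libraries within the ethylene-treated groups, with ethylene replicate 4 highest. Reads of near-identical copies that lie side by side could be shared between them in counting, and the sequences of these genes were not used here.

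AGIS_Os06g009830 itself had a second member 3 rows away, of 1506 bases. That neighbour had 171 and 123 CPM with calcium and ethylene, 125 and 202 with ethylene, 14.9 and 10.2 with calcium, and 16.5 and 12.3 in control. Its air levels were higher than those of AGIS_Os06g009830 and its ethylene levels lower in every library, so its ratio was 7.42 against 17.4. The pair on chromosome 10 had lengths of 1643 and 1222 bases and was 4 rows apart, with 3 genes between that had no counts in these libraries. The gene of 1643 bases had 338 and 718 CPM with calcium and ethylene, 687 and 795 with ethylene, 14.0 and 17.9 with calcium, and 24.7 and 32.3 in control. On chromosome 11 the pair had lengths of 958 and 930 bases.

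The fifth pair was that of 898 and 828 bases on chromosome 12. Between them lay a gene of 848 bases that averaged 6.20 CPM in ethylene and 0.0750 in air, below the limits of the rule. Another 766-base gene next to the pair averaged 5.29 CPM in ethylene and 0.267 in air. A 986-base gene 3 rows after the second member averaged 209 CPM in ethylene and 3.10 in air. In this stretch the genes higher in ethylene thus included several that the limits of the rule kept out, and these were picked out after their values were seen.

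**Figure D4:**
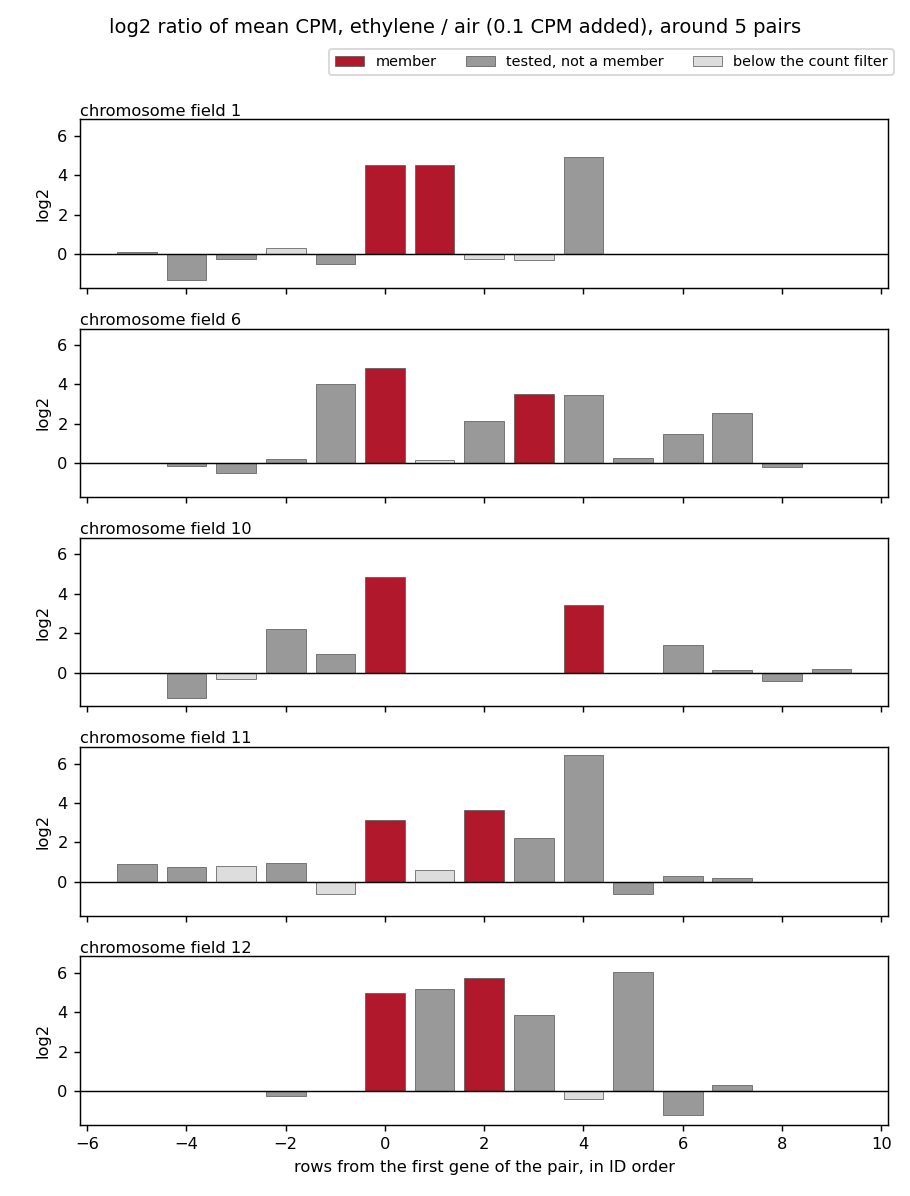
log2 ratio of mean CPM in ethylene over air, with 0.1 CPM added to both, for the genes around each of the 5 close pairs of members, in the order of the IDs (x, rows from the first gene of the pair). Red bars are members, dark grey bars are other genes tested and pale bars are genes below the count filter, and a gene with no counts has no bar. On chromosomes 1, 6, 11 and 12 at least 1 dark grey bar beside the pair is as tall as a member's.

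Counting 5 rows to each side of every member gave 467 other genes, of which 263 were tested. In 29 of the 263 (11.0%) the lowest ethylene CPM was at least 2 times the highest air CPM, against 2.92% of the 26694 other genes tested. A ratio of at least 4 was found in 19 neighbours (7.22%), against 1.42%. Since members are not counted as neighbours, each of the 19 had to miss a limit on level. All 19 had less than 1 CPM in at least 1 air library. In 14 of them the lowest CPM in ethylene was under 10, so most were low in ethylene as well. The median log2 ratio of ethylene over air was 0.24 in the tested neighbours and -0.04 in the other genes tested. The neighbours are not independent of each other, and these shares are a description of the table.

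The comparison of calcium and ethylene with ethylene was tested in edgeR's quasi-likelihood fit over all 27008 genes and 8 libraries. No member passed an adjusted p of 0.05, and neither did any other gene (0%). The lowest adjusted p of a member was 0.629 (edgeR's quasi-likelihood test with Benjamini-Hochberg adjustment). At an unadjusted p under 0.05, 15 of the 51 members were counted, 14 of them lower with calcium, where 7.69% of all genes tested were counted. The point estimates leaned lower with calcium in 43 members and higher in 8. Their median log2 fold change was -0.55 (-1.85 to 1.01), against a median of 0.00 over all genes tested.

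DESeq2, run on the same counts, called 4 members, of which 3 were lower and 1 higher with calcium, where it called 0.915% of the genes to which it gave an adjusted p. Leaving out 1 library moved these counts. At an unadjusted p under 0.05 in edgeR, 3 members were counted without ethylene replicate 4 (2.23% of all genes tested), 5 without calcium and ethylene replicate 2 (2.46%) and 23 without ethylene replicate 3 (16%), so the share over all genes moved along with the members. The median log2 fold change over the members was -0.32 without ethylene replicate 4. That library was the highest of the 4 ethylene-treated libraries in 34 members, and calcium and ethylene replicate 2 was the lowest in 28. Among all genes tested, ethylene replicate 4 was the highest of the 4 in 29.1%. Calcium and ethylene replicate 2 was the highest in 39.4% of all genes tested, but in only 2 members. The share of all genes in which calcium and ethylene replicate 2 was the lowest was not counted. These ranks used CPM by column total. The TMM factor was lowest in ethylene replicate 4 (0.937) and highest in calcium and ethylene replicate 2 (1.046). Ethylene replicate 4 also had the largest total count of the series, and the part of depth or scaling in these values was not tested.

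**Figure D5:**
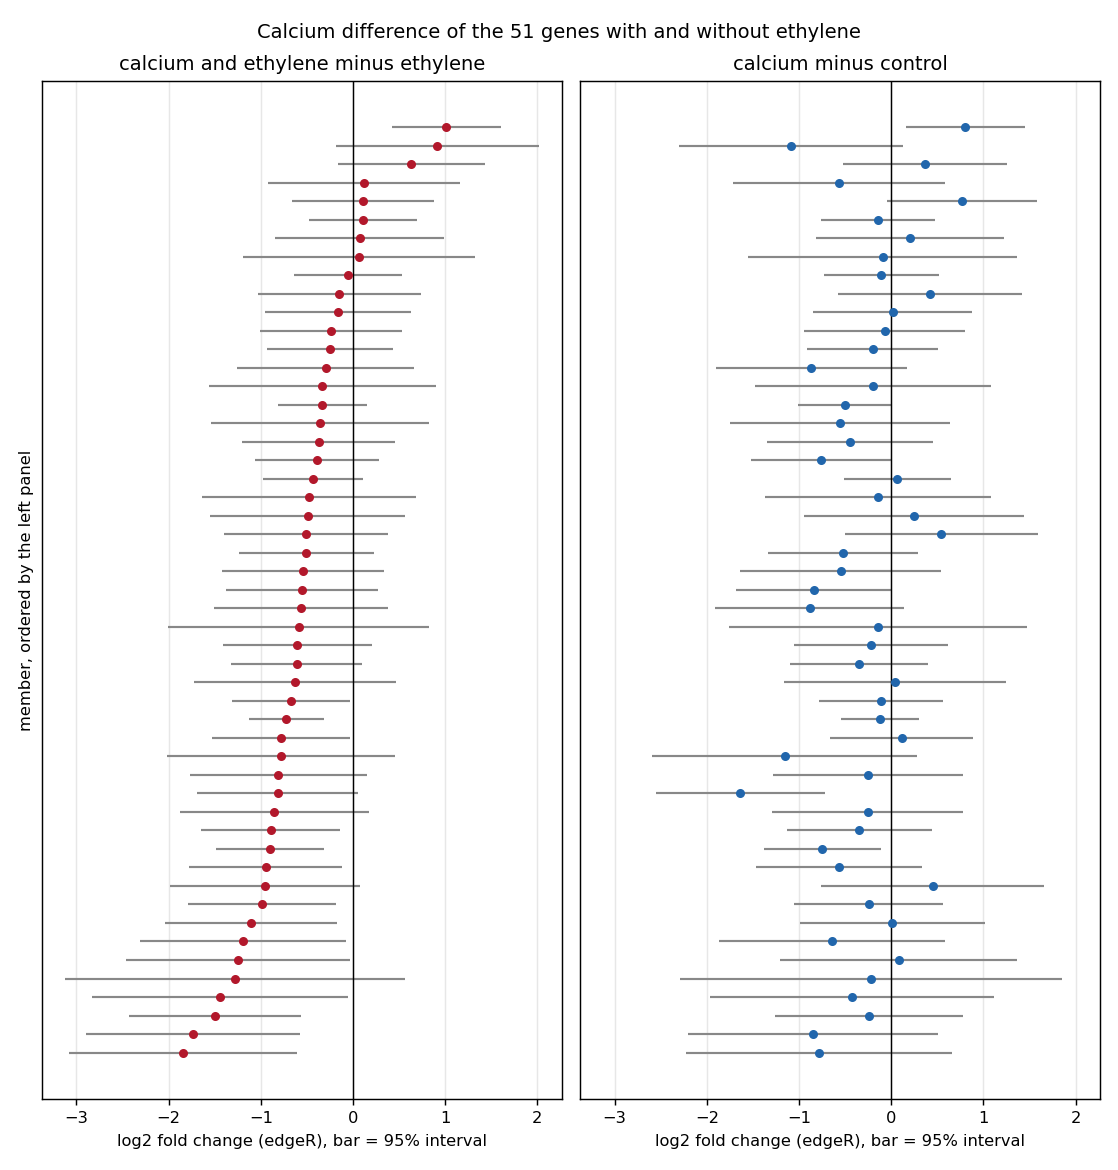
log2 fold change of each of the 51 genes (rows, in the same order in both panels) for calcium and ethylene minus ethylene (left) and calcium minus control (right), from edgeR, with bars for the 95% interval. On the left 43 points lie below 0 and on the right 37, and most bars cross 0.

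The 3 members lowest with calcium and ethylene relative to ethylene all had the chromosome field 1 and lay within 128 rows. A gene of 1299 bases had 21.6 and 42.4 CPM with calcium and ethylene, 68.8 and 150.0 with ethylene, 2.70 and 1.18 with calcium, and 3.65 and 2.97 in control. Both calcium and ethylene libraries lay below both ethylene libraries, and both calcium libraries below both control libraries. Its log2 fold change of calcium and ethylene over ethylene was -1.85 ± 0.527 (SE), with an adjusted p of 0.629 in edgeR's quasi-likelihood test and 0.0167 in DESeq2. The other two were the adjacent genes of 1230 and 1206 bases described above, at -1.74 ± 0.494 and -1.49 ± 0.400 (SE). DESeq2 gave them adjusted p-values of 0.0223 and 0.0185, while edgeR's quasi-likelihood test gave 0.629 for both. These genes were singled out after their values were seen.

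In the other direction stood a gene of 860 bases with the chromosome field 10. It had 260 and 289 CPM with calcium and ethylene, 164 and 95.5 with ethylene, 9.01 and 6.51 with calcium, and 4.46 and 4.41 in control. Both calcium and ethylene libraries lay above both ethylene libraries, and both calcium libraries above both control libraries. The log2 fold change was 1.01 ± 0.260 (SE) in calcium and ethylene over ethylene and 0.80 ± 0.284 in calcium over control, with adjusted p-values of 0.629 and 1 in edgeR's quasi-likelihood test. DESeq2 called the comparison in ethylene, with an adjusted p of 0.0455. In edgeR this gene passed without the count filter (adjusted p of 0.0243) and without ethylene replicate 3 (adjusted p of 0.0375).

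AGIS_Os06g009830 had a log2 fold change of -0.61 ± 0.310 (SE) in calcium and ethylene over ethylene, with an adjusted p of 0.649 by edgeR's quasi-likelihood test and a 95% interval of -1.32 to 0.10. Without ethylene replicate 4 the estimate was 0.03, so its direction rested on that library. AGIS_Os01g021290 had -0.36 ± 0.505 (SE), with an adjusted p of 0.858 by the same test. Without calcium and ethylene replicate 2 it was 0.05. By mean CPM, the difference in AGIS_Os06g009830 was smaller than the gap between the ethylene libraries. It was larger than the gap between the calcium and ethylene libraries. In AGIS_Os01g021290 the difference was smaller than the gap within either group. The median distance from the estimate to the end of its 95% interval was 0.88 on the log2 scale over the 51 members, and 8 members had an interval that lay wholly within a 2-fold change either way.

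By plain CPM, both calcium and ethylene libraries lay below both ethylene libraries in 21 members (41.2%), where 18.5% of all genes tested did so. Both lay above in 3 members (5.88%), against 24.8% of all genes tested. Among genes with ratios between 2 and 4, 33.7% lay below and 9.30% above, and between 1 and 2, 28.8% and 12.5%. The median log2 ratio of group means was -0.49 over the members and 0.08 over all genes tested. The genes that just missed the limit, with ratios between 2 and 4, had a median of -0.24, those with ratios between 1 and 2 had -0.08, and those under 1 had 0.12. In this comparison the difference thus ran along with the ratio that the rule used, and these medians are given as a description.

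In air, calcium was compared with control in the same way. No member passed an adjusted p of 0.05 in edgeR's quasi-likelihood test with Benjamini-Hochberg adjustment (lowest adjusted p of 1), as for all genes tested (0%). At an unadjusted p under 0.05, 3 members were counted, 2 of them lower with calcium, where 3.84% of all genes tested were counted. The estimate was lower with calcium in 37 members and higher in 14. Their median log2 fold change was -0.22 (-1.64 to 0.80), against -0.004 over all genes tested. Over the members the median was -0.14 without control replicate 1 and -0.34 without calcium replicate 1. Both calcium libraries lay below both control libraries in 17 members (33.3%), against 14.9% of all genes tested. They lay above in 2 members (3.92%), against 16.6%. Among the genes with ratios between 2 and 4, 31.8% lay below and 2.71% above. At ratios between 1 and 2, 33.5% lay below. The median log2 ratio of group means was -0.22 over the members, -0.26 and -0.15 in those classes and 0.04 at ratios under 1. The lean in air was thus shared by these other genes, and with all libraries it did not follow the ratio in order. Without calcium replicate 2 it did, with medians of -0.32, -0.18, -0.07 and 0.02 from the members down to ratios under 1. The order also held without control replicate 1 and without calcium replicate 1, but not without control replicate 2. Control replicate 1 was the highest of the air libraries in 25 members and in 22.3% of all genes tested.

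DESeq2 called 1 member in this comparison, where it called 0.0222% of the genes tested. This was a gene of 661 bases with the chromosome field 7. It had 115 and 142 CPM with calcium and ethylene, 193 and 237 with ethylene, 4.63 and 11.8 with calcium, and 27.8 and 23.3 in control. Both calcium and ethylene libraries lay below both ethylene libraries, and both calcium libraries below both control libraries. The log2 fold change of calcium over control was -1.64 ± 0.395 (SE), with an adjusted p of 0.0464 in DESeq2 and of 1 in edgeR's quasi-likelihood test. For AGIS_Os06g009830 the estimate of calcium over control was -0.35 ± 0.327 (SE), and for AGIS_Os01g021290 it was -0.55 ± 0.508 (SE), both with an adjusted p of 1 in edgeR's quasi-likelihood test. Without control replicate 1 the estimate for AGIS_Os01g021290 was 0.06.

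Averaged over ethylene and air, calcium gave no member an adjusted p under 0.05 in edgeR's quasi-likelihood test (0% of all genes, lowest member value 0.388). At an unadjusted p under 0.05, 16 members were counted, 15 of them lower with calcium, where 9.92% of all genes tested were counted. That number was 8 without ethylene replicate 4 (5% of all genes tested), 9 without control replicate 1 (7.81%) and 25 without ethylene replicate 3 (16.6%). DESeq2 called 5 members, where it called 1.45% of the genes to which it gave an adjusted p. They were the genes of 1299 and 1230 bases on chromosome 1, the gene of 661 bases on chromosome 7 and a gene of 2700 bases on chromosome 4, all lower with calcium, and the gene of 860 bases on chromosome 10, which was higher. By CPM, 32 members were lower with calcium in both pairs of groups, 4 were higher in both, 10 were lower with calcium only in ethylene and 5 only in air. Members lower with calcium thus made up 82.4% in ethylene and 72.5% in air. Of all genes tested, leaving out those with a group mean of 0, 42.3% were lower in ethylene and 50.5% in air. Among genes with ratios between 2 and 4 the shares were 72.5% and 78.7%. The median of the averaged log2 fold change was -0.42 over the members, against -0.003 over all genes tested. Without ethylene replicate 4 it was -0.24 over the members.

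Whether the calcium difference itself depended on ethylene was tested as the interaction. No member and no other gene passed an adjusted p of 0.05 in edgeR's quasi-likelihood test (0%, lowest member value 1), and 2 members had an unadjusted p under 0.05, where 2.38% of all genes tested did. DESeq2 called no member, and 0.0037% of the genes tested. The estimate was negative in 33 members and positive in 18. Over all genes tested the median was -0.004 on the log2 scale, and over the members it was -0.33. That median was -0.09 without ethylene replicate 4, -0.04 without calcium replicate 1 and -0.54 without ethylene replicate 3. With a replicate block in the fit the direction turned, with 20 members negative, 31 positive and a median of 0.08. Replicate number 4 occurs in ethylene only, so the ethylene part of that fit rests on replicate 3 of each ethylene-treated group. That part is thus a comparison of 1 library with 1. The median distance from the estimate to the end of its 95% interval was 1.33, and 4 members had an interval that lay wholly within a 2-fold difference either way. AGIS_Os06g009830 had an interaction of -0.26 ± 0.450 and AGIS_Os01g021290 of 0.20 ± 0.715 (SE).

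Replicate libraries lay further apart in the members than in the other genes past both limits on level, which are not matched to them in level and stand mostly higher in air. The median fold between the libraries of a group was 1.43 in calcium and ethylene, 1.61 in ethylene, 1.50 in calcium and 1.35 in control. In the other genes past both limits it was 1.18 in calcium and ethylene, in ethylene and in calcium, and 1.13 in control. More than 2-fold differences between replicates occurred in 8 members in calcium and ethylene (15.7%, against 1.61% of the other genes), 11 in ethylene (21.6%, against 3.49%), 11 in calcium (against 3.72%) and 6 in control (11.8%, against 2.36%). Ethylene replicate 4 lay above ethylene replicate 3 in 37 members, and calcium and ethylene replicate 3 above replicate 2 in 32. Of the 12307 other genes past both limits, this was so in 5782 and 4673.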

How the data were processed

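The authors deposited whole-number counts per gene and library, with a length in bases per gene. Per the submitters' processing notes, fastp and featureCounts were used, with no version named. For the aligner, genome build, annotation and strand setting, the answer is not given in the sources used here. How reads of overlapping, antisense or near-identical genes were assigned is therefore not known. Groups and replicate numbers came from the labels.

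From the deposited counts, CPM used the column total of each library, and RPKM divided it by length. Tests used edgeR 4.0.16 (limma 3.58.1, R 4.3.3): filterByExpr with a minimum count of 10 (27008 genes with 99.9% of counts), TMM scaling, and a robust quasi-likelihood fit of 4 groups (4 residual degrees of freedom, common dispersion 0.093). P-values were adjusted by Benjamini-Hochberg over all genes tested, with a threshold of 0.05. DESeq2 1.42.0 was the alternative tool; an adjusted p that it did not give was left out. Tables and figures used Python 3.11.15, pandas 2.3.3 and matplotlib 3.10.9. The fit was also run on simulated data, in which libraries were drawn independently and no single library was shifted.

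The members and tests were chosen with earlier results of these data known. The members named by ID are the one of the highest ratio and the one of the highest mean ethylene CPM. Pathway and marker lists were not used, since the IDs have no names. Alternatives were other scalings, count filters, limits, a replicate block and leaving out each library. Same-numbered libraries correlated by 0.18 (control with calcium), 0.104 and 0.107 (with calcium and ethylene replicate 2) and 0.0154 (ethylene with calcium and ethylene) in their deviations from the group means, and were not treated as paired.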

Additional observations from a re-analysis of the deposited data

Results flagged for a closer look

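In a gene of 2859 bases with the chromosome field 2, calcium went opposite ways with and without ethylene in every library. It had 143 and 171 CPM in the calcium and ethylene libraries, 118 and 40.9 in the ethylene libraries, 2.94 and 4.41 in the calcium libraries, and 9.45 and 6.18 in the control libraries. Both calcium and ethylene libraries lay above both ethylene libraries, and both calcium libraries lay below both control libraries. The interaction was 2.00 ± 0.695 on the log2 scale (SE), with an unadjusted p of 0.0228 and an adjusted p of 1 in edgeR's quasi-likelihood test with Benjamini-Hochberg adjustment. This was 1 of the 51 members (1.96%), and 838 of all genes tested (3.10%) moved opposite ways in the same sense. Its fold was 42.7 in calcium and ethylene over calcium and 10.2 in ethylene over control.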

How the results depend on the processing

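Members called between calcium and ethylene and ethylene numbered 0 in edgeR, 1 with no filter on low counts, 4 in DESeq2, and 0 to 5 with 1 library left out (5 without ethylene replicate 3). Over all genes, the calls in that comparison numbered 116 with no filter, 180 in DESeq2 and 345 without ethylene replicate 3. Calcium against control gave 0, 1 in DESeq2 and 0 to 0 with 1 library left out. The averaged calcium comparison gave 0, 2 with no filter, 5 in DESeq2 and 0 to 2 with 1 library left out (2 without ethylene replicate 3), where all genes gave 277, 347 and 116 in the same fits, and the interaction gave 0 in each of these. The fit with a replicate block called 0 members in each comparison. Members lower numbered 34 with the replicate block in calcium and ethylene against ethylene (43 without it, 36 to 44 with 1 library left out) and 39 in calcium against control (37 without it, 28 to 40). With the block the median log2 fold change over the members was -0.14 in calcium and ethylene against ethylene (-0.55 without it) and 0.08 in the interaction (-0.33 without it). Number 4 occurs in ethylene only. With the block, calcium and ethylene against ethylene therefore reduces to replicate 3 of each group, 1 library against 1. The labels do not say what the replicate numbers mean. Control with calcium gave the same correlation of 0.18 for both numbers, since the deviations of 2 libraries from their mean mirror each other. It is therefore 1 value. Calcium and ethylene replicate 2 correlated by 0.104 with control and 0.107 with calcium. Ethylene with calcium and ethylene gave 0.0154. On CPM with TMM scaling the rule found 49 genes, of which 47 were among the 51 members. On plain CPM it found 52 with a lowest ethylene CPM of 5 and 44 with one of 20. With a lowest air CPM of 2 it found 36. The rule found 96 genes at 3-fold, 32 at 5-fold, 11 at 8-fold and 54 to 83 on 7 libraries. The highest numbers were without control replicate 1 and without ethylene replicate 4, with 83 each, and without calcium and ethylene replicate 2, with 80. All 51 members were found again in each of these, since leaving out a library can only add genes. With 1 library left out, the median log2 ratio over the members ran from 3.28 to 3.81 in ethylene over control, from 3.50 to 3.64 in calcium and ethylene over calcium, from -0.67 to -0.28 in calcium and ethylene over ethylene (-0.55 with TMM scaling), and from -0.35 to -0.14 in calcium over control. For AGIS_Os06g009830 in calcium and ethylene over ethylene it ran from -1.05 to 0.028. For AGIS_Os01g021290 it ran from -0.94 to 0.048 in calcium and ethylene over ethylene and from -1.20 to 0.063 in calcium over control. The causes were not tested. The counts of members lower and of members found again were added after seeing the data. With 2 libraries a group, small differences could not be seen.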
